A study of Homo sapiens with 16 samples.

Results

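The genes described here are 37 genes of the actin cytoskeleton and of the transcription programmes run by SRF and by YAP, chosen by name and matched to the gene symbols of the authors' deposited tables. Of these, 36 were listed in at least 1 table and 31 in all 6, among 19315 genes listed in at least 1 table. ACTG2, the enteric smooth muscle actin, was listed in none. CNN1, MYOCD and ANKRD1 were listed in U2OS but not in HCT116, LCP1 was missing from the HCT116 tables for siMYBL2 and the double knockdown, and VIM from the HCT116 table for the double knockdown.

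RNA was measured in U2OS, a human osteosarcoma line, and HCT116, a human colorectal carcinoma line, to study the transcription factors MYBL1 (A-MYB) and MYBL2 (B-MYB) in the mitotic cell cycle. In each line the groups were the double knockdown (small interfering RNA, siRNA, against MYBL1 and MYBL2 together), siMYBL1 alone, siMYBL2 alone, and siCtrl, a non-targeting siRNA. Every group was taken after 48 h and held 2 libraries, so there were 8 groups and 16 libraries. The sources used here do not give the siRNA sequences, and effects of a siRNA on transcripts other than its target were not tested.

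Each of the authors' deposited tables compares 1 knockdown with siCtrl of the same line and gives a log2 fold change with its standard error (SE), so a positive value means higher after the knockdown. Values per library are not part of the tables, the depth of single libraries is unknown, and the normalized counts averaged over the 4 libraries of a table summed to between 17441617 and 19826741. The group levels quoted below are normalized counts implied by a gene's mean and its fold change per the authors' deposited table, and they are descriptions without an error of their own. The siCtrl libraries of a line serve all its comparisons; the siCtrl level implied for a member by the tables of 1 line differed between the highest and the lowest by a median ratio of 1.05 in U2OS and 1.08 in HCT116. MYBL2 was left at 4.34% of siCtrl in the U2OS double knockdown and at 9.92% in the HCT116 double knockdown, and MYBL1 at 43.5% and 27.8%, per the authors' deposited tables. The levels of both after the single knockdowns are not given here, and differences between siMYBL1 and siMYBL2 were not set against them. As for the lines themselves, 8 of 10 mesenchymal markers were listed in U2OS (COL1A2 and TWIST1 were not) and 9 of 10 epithelial markers in HCT116 (VIL1 was not). The other list was listed in part as well, 7 of 10 epithelial markers in U2OS and 7 of 10 mesenchymal markers in HCT116. Their median level was 2168 normalized counts for mesenchymal and 240.2 for epithelial markers in U2OS, and 70.2 and 4191 in HCT116. In RNA from whole cultures, fewer cells of a kind and less RNA per cell cannot be told apart.

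Actin filaments form stress fibres with myosin, tropomyosins and crosslinkers, and they pull on the matrix through focal adhesions. Free actin monomers hold the cofactors MRTFA and MRTFB in the cytoplasm; when monomers are used up in filaments, the cofactors enter the nucleus and bind SRF at CArG boxes, which lie in front of many genes of the contractile apparatus. YAP, the effector of the Hippo pathway, responds to the same tension and drives genes such as CCN1 and CCN2 with TEAD factors. Myocardin (MYOCD) is the SRF cofactor of smooth and heart muscle.

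In the U2OS double knockdown a set of contractile and adhesion genes was higher. ACTA2, the smooth muscle alpha actin, stood at 5.74 times its siCtrl level, the coronin CORO1A at 3.60 times, the LIM adaptor FHL2 at 2.68 times and calponin CNN1 at 2.46 times per the authors' deposited table. Against these, MYOCD was left at 7.04% of siCtrl, and TAGLN2, VIM and AMOTL2 were lower. The cytoplasmic actins ACTB and ACTG1, SRF and both MRTF genes did not pass the test in any of the 6 tables. In HCT116 fewer members passed, ACTA2, FHL2, LIMA1 and AXL higher and TAGLN2 lower in the double knockdown.

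A member counts as called where the authors' adjusted p of the 2-sided Wald test was under 0.05. In the U2OS double knockdown 11 of 36 listed members were higher and 4 lower, while 6.55% of 16803 listed genes were higher and 6.06% lower. After siMYBL1 in U2OS 7 of 36 members were higher and 2 lower (all genes, 3.44% and 2.27%), and after siMYBL2 in U2OS 0 were higher and 3 lower (all genes, 1.69% and 3.51%; 11 members had an unadjusted Wald p under 0.05). In the HCT116 double knockdown 4 of 31 were higher and 1 lower (all genes, 2.82% and 4.12%). After siMYBL1 in HCT116 1 of 33 was higher and 1 lower (all genes, 0.115% and 0.144%), and after siMYBL2 in HCT116 0 of 32 were called by the DESeq2 Wald test, with 4 at an unadjusted p under 0.05 (all genes, 0.291% and 0.837%). The calls of the larger tables depend on the spread assumed: with the Wald statistics divided by their scaled median absolute deviation (1.49 in the U2OS double knockdown), 6 of the 15 members there passed (ACTA2, CNN1, CORO1A, FHL2, LIMA1 and MYOCD), 4 of 9 after siMYBL1 in U2OS (CNN1, FHL2, LIMA1 and TAGLN2) and 3 of 5 in the HCT116 double knockdown (ACTA2, FHL2 and TAGLN2). The share of members higher stood above that of all genes for the double knockdown and for siMYBL1 in both lines. The share of members lower stood above that of all genes for each U2OS comparison and for siMYBL1 in HCT116. It lay below that of all genes for the double knockdown and siMYBL2 in HCT116. In HCT116 after siMYBL1 the share in each direction rested on a single gene. The members were chosen with earlier results of these data known. These shares and the medians that follow are therefore descriptions and not a test of the group. The median log2 fold change of the listed members was 0.17, 0.12 and -0.02 in U2OS for the double knockdown, siMYBL1 and siMYBL2, and 0.16, 0.10 and 0.14 in HCT116, against 0.01, 0.02 and 0.01 and -0.02, 0.00 and -0.02 over all listed genes.

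Across all tables, 18 of 36 members were called at least once, against 15.8% of the 19315 listed genes. Of these, 13 were called higher only, 5 lower only and 0 in both directions (all genes, 8.01%, 7.52% and 0.259%). All 6 tables listed 31 of the 36 members but 12069 of the 19315 genes, so the chances of a call differed. The shares over all genes were not matched for this or for level. In U2OS 17 of 36 members were called in at least 1 table (all genes, 15.8% of 16808), in HCT116 6 of 33 (all genes, 5.44% of 17323), and 5 of 33 in both lines (3.69% of the 14816 genes listed in both). The members never called were ACTB, ACTG1, CNN2, MYL9, TPM1, TPM2, FLNA, ACTN4, ZYX, PDLIM7, TGFB1I1, CFL1, PFN1, SRF, MRTFA, MRTFB, CCN2 and ANKRD1. Their log2 fold changes lay between -0.73 and 0.41 in U2OS and between -0.49 and 0.40 in HCT116 per the authors' deposited tables.

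**Figure D1:**
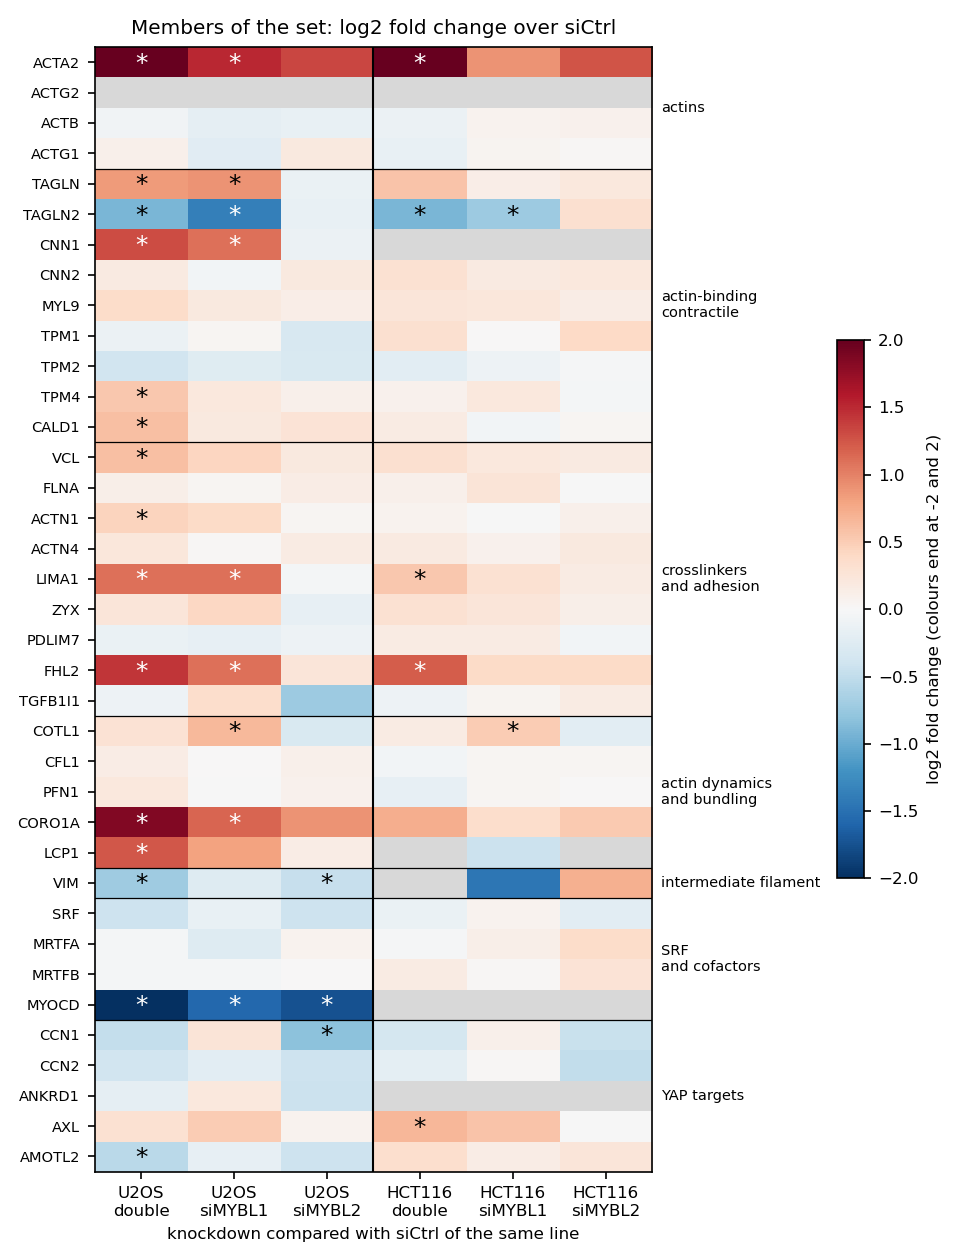
Colour gives the log2 fold change over siCtrl of each member (rows, grouped by role) in the 6 comparisons (columns, U2OS then HCT116), grey marks a gene that a table does not list and a star an adjusted p of the Wald test under 0.05. The stars gather in the U2OS double knockdown (15 members) and after siMYBL1 in U2OS (9 members), and ACTA2 is red in all 6 columns.

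Promoter sequences of 32 of the 37 members were found in RefSeq (GRCh38.p14), taken from 250 bases before to 50 bases after each annotated start; ACTB, TAGLN, MYL9, MYOCD and CCN1 were not searched. The CArG box, the letters that SRF binds, was found in 9 of the 32 genes, ACTG1, ACTG2, ACTN1, CNN2, FHL2, FLNA, SRF, TGFB1I1 and TPM4, and in 1.29% of all 35116 promoters (1.60% of 27305 genes). Only perfect matches were counted, so a gene with a box that departs from the pattern is not among them. Windows of 30 bases, written 5′ to 3′ on the gene's strand with the box in capitals, are shown for the 3 holders that were called and for 3 that were not, since they allow the sequences of both kinds to be compared.
FHL2 upstream start: aatctggagaCCTTAAAAGGcacgtgggag
FHL2 downstream start: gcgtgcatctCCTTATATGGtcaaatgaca
ACTN1: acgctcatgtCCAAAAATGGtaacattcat
TPM4: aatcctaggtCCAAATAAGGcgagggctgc
SRF first: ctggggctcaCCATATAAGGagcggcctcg
SRF second: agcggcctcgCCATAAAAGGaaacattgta
ACTG1: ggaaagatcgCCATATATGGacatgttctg
CNN2: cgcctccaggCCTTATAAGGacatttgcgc
The FHL2 windows lie at chr2:105438595-105438624 and chr2:105399091-105399120 on the reverse strand and belong to different annotated starts of the gene. The ACTN1 window is chr14:68977718-68977747 (reverse) and the TPM4 window chr19:16067355-16067384 (forward). SRF carries a pair of boxes at chr6:43171229-43171258 and chr6:43171249-43171278 (forward), ACTG1 a box at chr17:81512874-81512903 (reverse) and CNN2 at chr19:1026509-1026538 (forward). In the U2OS double knockdown 3 of 8 listed genes with a box were higher (ACTN1, FHL2 and TPM4) and 0 lower. Of the 23 searched genes without a box 7 were higher and 3 lower. The median log2 fold changes with and without a box were 0.15 and 0.22. Over all genes 6.55% were higher and 6.06% lower in that comparison. FHL2 and ACTG1 both hold a box, and their log2 fold changes were 1.42 and 0.10 per the authors' deposited table for that comparison.

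The letters GGAATG, or CATTCC on the other strand, which TEAD factors bind, were found in the promoters of 12 of the 32 members, ACTA2, ACTN1, AMOTL2, ANKRD1, AXL, CALD1, CCN2, FHL2, LIMA1, MRTFB, PFN1 and VCL, and in 14.0% of all promoters (16.7% of genes). The following windows show the densest case, CCN2, the YAP target AMOTL2 that was lower, and ACTA2 and LIMA1, which were higher, with the hexamer in capitals.
CCN2: ggaaggtggggaGGAATGcgaGGAATGtcc
AMOTL2: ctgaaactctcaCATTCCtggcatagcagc
ACTA2: gagcagaccagtGGAATGcagtggaagaga
LIMA1: gagatggggtcaGGAATGagttgttgggct
They lie at chr6:131951459-131951488, chr3:134374499-134374528, chr10:88952939-88952968 and chr12:50202172-50202201, all on the reverse strand. In the U2OS double knockdown 6 of 12 genes with the hexamer were higher and 1 lower (all genes, 6.55% and 6.06%). Of 19 listed genes without it 4 were higher and 2 lower. After siMYBL1 in U2OS 3 of 12 with it and 3 of 19 without it were higher, with 0 and 1 lower. Over all genes 3.44% were higher and 2.27% lower in that comparison. After siMYBL2 in U2OS 0 of either were higher, with 0 and 1 lower (all genes, 1.69% and 3.51%). In the HCT116 double knockdown 4 of 11 with it and 0 of 16 without it were higher, with 0 and 1 lower. Over all genes 2.82% were higher and 4.12% lower there. After siMYBL1 in HCT116 0 of 11 with it and 1 of 18 without it were higher, with 0 and 1 lower. After siMYBL2 in HCT116 0 of 11 and 0 of 17 were called. Over all genes 0.115% were higher and 0.144% lower after siMYBL1 in HCT116, and 0.291% and 0.837% after siMYBL2. A match here is a description of letters, not of a bound site, and no test was made of these counts.

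**Figure D2:**
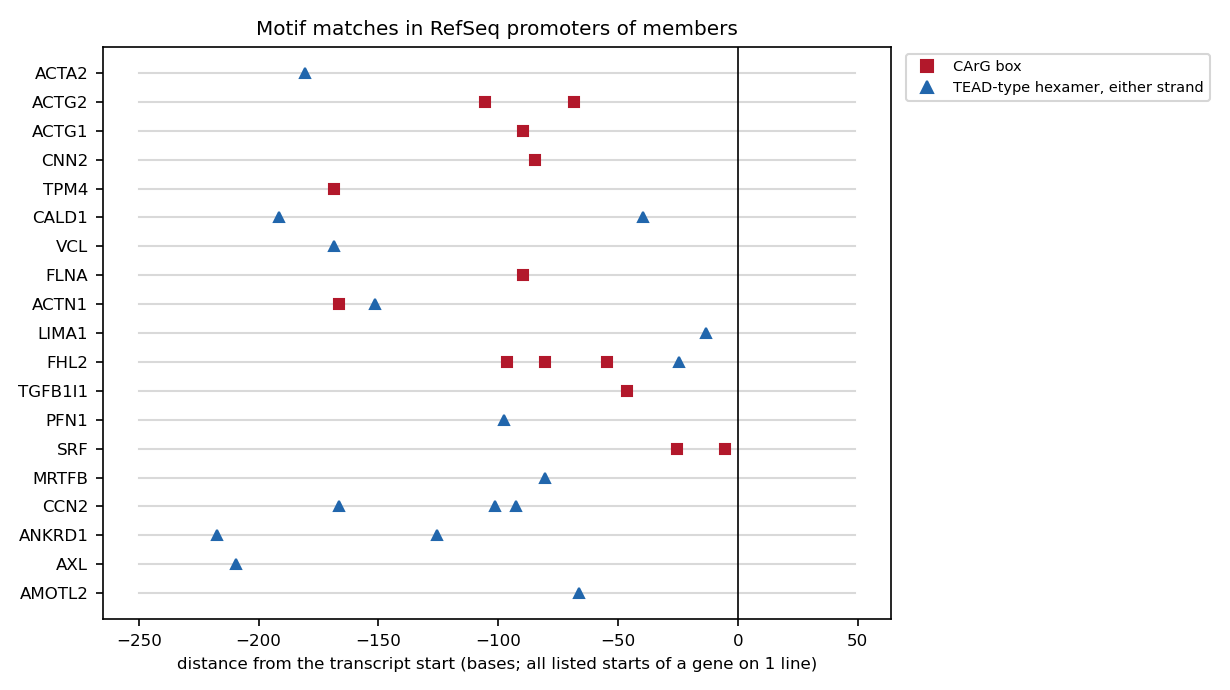
Positions of CArG boxes (red squares) and of the TEAD-type hexamer (blue triangles) are shown by distance in bases from the annotated transcript start, 1 line per member with a match. FHL2, SRF and ACTG2 carry more than 1 CArG match, and CCN2 has 3 hexamers.

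Among the actins, ACTA2 (chromosome 10, positions 88935074 to 88991339 of hg38, reverse strand), the actin of smooth muscle and of contractile fibroblasts, was the member with the largest rise in the double knockdown of both lines. Its implied level was 269, 132 and 121 normalized counts in U2OS after the double knockdown, siMYBL1 and siMYBL2, against 46.4 to 48.3 after siCtrl. In HCT116 it was 295, 98.8 and 132 normalized counts in the same order of knockdowns, against 52.9 to 59.0 after siCtrl. All 6 knockdown levels thus lay above all siCtrl levels, and the level was highest with both siRNAs in either line. The log2 fold change was 2.52 (SE 0.36, Wald test adjusted p = 3.85e-10) in the U2OS double knockdown and 1.51 (SE 0.43, adjusted p = 0.0123) after siMYBL1 per the authors' deposited tables. In the HCT116 double knockdown it was 2.32 (SE 0.39, Wald test adjusted p = 2.39e-07) per the authors' deposited table. The other 3 comparisons did not pass, with 1.33 (SE 0.46, Wald test adjusted p = 0.0642) after siMYBL2 in U2OS, 1.26 (SE 0.41, adjusted p = 0.115) after siMYBL2 in HCT116 and 0.90 (SE 0.44, adjusted p = 1) after siMYBL1 in HCT116 per the authors' deposited tables. ACTA2 shares 380 of its 2976 exon bases with FAS, a death receptor gene on the opposite strand. FAS was called higher with ACTA2, at 1.05 (SE 0.22) in the U2OS double knockdown, 0.70 (SE 0.22) after siMYBL1 in U2OS and 1.25 (SE 0.20) in the HCT116 double knockdown per the authors' deposited tables. The sources used here do not state whether counting used strand, and the part of shared bases in the ACTA2 values was not tested.

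The cytoplasmic actins did not pass the test in any table. ACTB, beta actin, had an implied level of 70115, 63663 and 68301 normalized counts in U2OS after the double knockdown, siMYBL1 and siMYBL2, against 72108 to 75721 after siCtrl. Its log2 fold changes lay between -0.18 and -0.06 in U2OS and between -0.11 and 0.08 in HCT116, with SE from 0.12 to 0.16, per the authors' deposited tables. For ACTG1, gamma actin, they lay between -0.23 and 0.19 in U2OS and between -0.14 and 0.06 in HCT116, with SE from 0.11 to 0.18. None of these 12 values passed the Wald test, with 0 of the 12 at an unadjusted p under 0.05. ACTB, ACTG1, CFL1 and PFN1 have processed copies elsewhere in the genome, and the coding sequences of the muscle actins are near-identical, so the assignment of reads among them is uncertain.

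Among the actin-binding proteins of the contractile apparatus, TAGLN and CNN1 were higher in U2OS after both treatments that contained siMYBL1. TAGLN encodes transgelin (SM22), an actin-bundling protein used as a marker of smooth muscle. In U2OS its implied level was 793, 797 and 407 normalized counts after the double knockdown, siMYBL1 and siMYBL2, against 429 to 449 after siCtrl. Relative to siCtrl, the log2 fold change was 0.85 (SE 0.30, Wald test adjusted p = 0.0425) in the double knockdown, 0.89 (SE 0.24, adjusted p = 0.00783) after siMYBL1 and -0.14 (SE 0.25, adjusted p = 0.931) after siMYBL2 per the authors' deposited tables. HCT116 held little TAGLN, 59.2 to 97.4 normalized counts over all its groups, and no comparison passed there. TAGLN shares 446 of 3917 exon bases with PCSK7 on the opposite strand, which stood at 0.60 (SE 0.21, Wald test adjusted p = 0.0399) in the U2OS double knockdown per the authors' deposited table; the part of this overlap was not tested.

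CNN1, calponin 1, which binds actin and restrains myosin in smooth muscle, had an implied level of 931, 802 and 360.5 normalized counts in U2OS after the double knockdown, siMYBL1 and siMYBL2, against 372 to 389.8 after siCtrl. The log2 fold change was 1.30 (SE 0.24, Wald test adjusted p = 3.80e-06) in the double knockdown, 1.11 (SE 0.21, adjusted p = 2.66e-05) after siMYBL1 and -0.11 (SE 0.24, adjusted p = 0.948) after siMYBL2 per the authors' deposited tables. The level after siMYBL2 alone thus lay just under the siCtrl levels, and those with siMYBL1 at over 800 normalized counts.

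TAGLN2, the transgelin found widely outside muscle (chromosome 1, positions 159918107 to 159925507, reverse strand), was lower in the U2OS comparisons in which TAGLN was higher, and lower in HCT116 too. Its implied level was 6258, 4492 and 11042 normalized counts in U2OS after the double knockdown, siMYBL1 and siMYBL2, against 11643 to 12215 after siCtrl. HCT116 had 1551, 1632 and 3439 normalized counts after the same knockdowns, against 2705 to 2924 after siCtrl. In either line the levels with siMYBL1 were the low ones, and siMYBL2 alone left TAGLN2 near siCtrl in U2OS and above it in HCT116. The TAGLN2 log2 fold change was -0.92 (SE 0.20, Wald test adjusted p = 0.000156) in the U2OS double knockdown and -1.37 (SE 0.19, adjusted p = 5.54e-10) after siMYBL1 per the authors' deposited tables. For HCT116 the authors' deposited tables gave -0.92 (SE 0.15, Wald test adjusted p = 2.82e-07) in the double knockdown and -0.73 (SE 0.16, adjusted p = 0.00518) after siMYBL1. After siMYBL2 it stood at -0.15 (SE 0.15, adjusted p = 0.828) in U2OS and 0.32 (SE 0.15, adjusted p = 0.520) in HCT116 by the Wald test per the authors' deposited tables. TAGLN2 was the member called most often, in 4 of 6 tables.

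**Figure D3:**
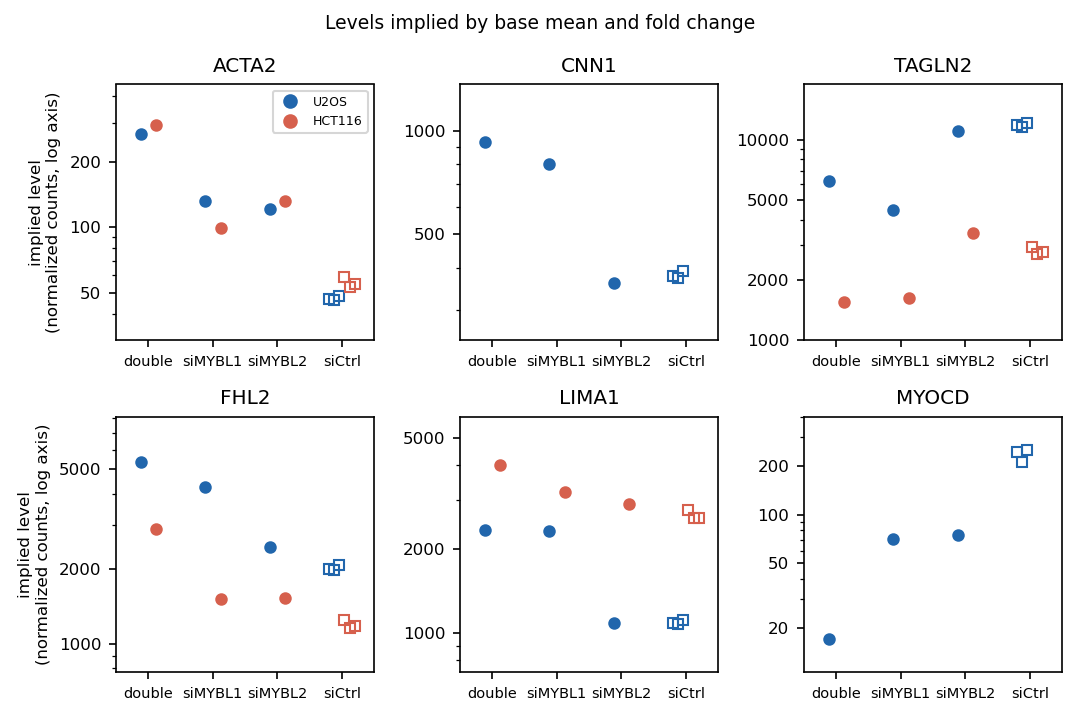
Implied levels in normalized counts (log axis) of 6 members after each knockdown (filled circles) and after siCtrl (open squares, 1 per table of the line) in U2OS (blue) and HCT116 (red); CNN1 and MYOCD were not listed in HCT116. TAGLN2 is low and FHL2 and CNN1 high wherever siMYBL1 was used in U2OS, and MYOCD is lowest in the double knockdown.

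Tropomyosins wrap the filament and set which motors reach it, and caldesmon (CALD1) inhibits myosin on it. TPM4 was higher in the U2OS double knockdown, with an implied 5986 normalized counts against 4128 after siCtrl and a log2 fold change of 0.54 (SE 0.15, Wald test adjusted p = 0.00702) per the authors' deposited table. CALD1 was higher there as well, with 3901 against 2574 normalized counts and 0.60 (SE 0.17, Wald test adjusted p = 0.00551) per the authors' deposited table. Neither passed in another table; TPM4 stood between -0.04 and 0.22 and CALD1 between -0.05 and 0.28 elsewhere. TPM1, TPM2, the calponin CNN2 and the myosin light chain MYL9 were not called. Their values in the U2OS double knockdown were -0.11 (SE 0.17), -0.39 (SE 0.20), 0.18 (SE 0.16) and 0.37 (SE 0.22) per the authors' deposited table.

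Of the 9 crosslinkers and adhesion proteins, 4 were higher and 0 lower in the U2OS double knockdown, and 2 higher and 0 lower in the HCT116 double knockdown (4 and 3 at an unadjusted p under 0.05). Over all genes 6.55% were higher and 6.06% lower in U2OS, and 2.82% and 4.12% in HCT116. FHL2, a LIM-only adaptor of focal adhesions that also binds nuclear factors, had implied levels of 5371, 4247 and 2449 normalized counts in U2OS after the double knockdown, siMYBL1 and siMYBL2, against 1974 to 2071 after siCtrl. In HCT116 the levels were 2898, 1517 and 1535 normalized counts, against 1164 to 1252 after siCtrl. The double knockdown gave the highest level in either line; siMYBL1 alone came next in U2OS, and in HCT116 both single knockdowns lay close to each other. The FHL2 log2 fold change was 1.42 (SE 0.24, Wald test adjusted p = 2.53e-07) in the U2OS double knockdown, 1.11 (SE 0.24, adjusted p = 0.000355) after siMYBL1 in U2OS and 1.21 (SE 0.20, adjusted p = 2.18e-07) in the HCT116 double knockdown per the authors' deposited tables. FHL2 holds the CArG boxes shown above at separate starts, and the tables do not separate transcripts by start.

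LIMA1 (EPLIN), which bundles actin and slows its turnover at junctions and stress fibres, had implied levels of 2339, 2324 and 1087 normalized counts in U2OS after the double knockdown, siMYBL1 and siMYBL2, against 1083 to 1113 after siCtrl. In HCT116 they were 3994, 3200.0 and 2896 normalized counts, against 2581 to 2761 after siCtrl. The U2OS levels fell into a high pair with siMYBL1 and a low pair without it. Its log2 fold change was 1.10 (SE 0.18, Wald test adjusted p = 2.63e-08) in the U2OS double knockdown, 1.10 (SE 0.19, adjusted p = 3.91e-06) after siMYBL1 in U2OS and 0.53 (SE 0.16, adjusted p = 0.0188) in the HCT116 double knockdown per the authors' deposited tables.

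Vinculin (VCL), which ties integrin adhesions to actin, and alpha-actinin 1 (ACTN1), which crosslinks stress fibres, were called only in the U2OS double knockdown. VCL had 5511 implied normalized counts against 3612 after siCtrl and a log2 fold change of 0.61 (SE 0.16, Wald test adjusted p = 0.00165) per the authors' deposited table. ACTN1 had 10911 against 8041 normalized counts and 0.44 (SE 0.15, Wald test adjusted p = 0.0292) per the authors' deposited table. VCL was positive in all 6 tables, with 0.43 (SE 0.17, Wald test adjusted p = 0.115) after siMYBL1 in U2OS and 0.32 (SE 0.15, adjusted p = 0.211) in the HCT116 double knockdown per the authors' deposited tables. AP3M1, which overlaps VCL on the opposite strand, was at -0.38 (SE 0.19) in the U2OS double knockdown per the authors' deposited table. Filamin FLNA, ACTN4, zyxin (ZYX), PDLIM7 and TGFB1I1 (Hic-5) were not called. TGFB1I1 came nearest, at -0.73 (SE 0.27, Wald test adjusted p = 0.0937) after siMYBL2 in U2OS per the authors' deposited table.

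**Figure D4:**
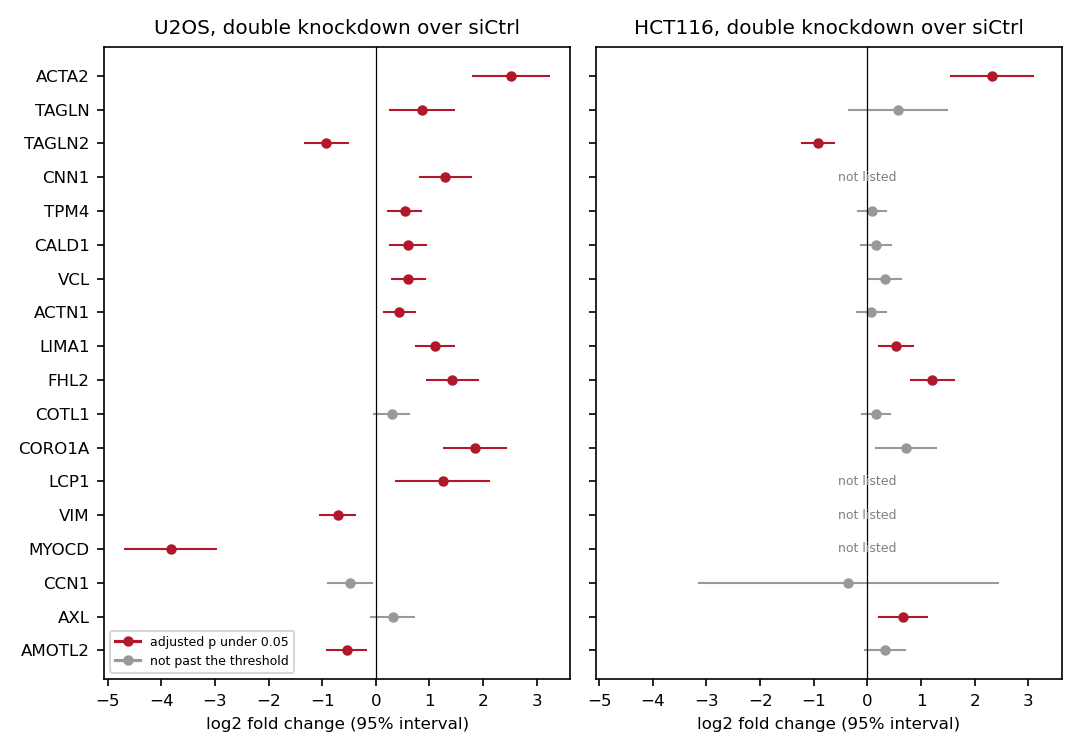
Log2 fold changes of the double knockdown over siCtrl with 95% intervals (log2 fold change plus or minus 1.96 SE) for the 18 members called in at least 1 table, U2OS left and HCT116 right. ACTA2, FHL2, LIMA1 and TAGLN2 are red (adjusted p under 0.05) in both panels, and CCN1 in HCT116 has by far the widest interval.

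Among proteins of actin turnover and bundling, the coactosin COTL1, which binds filaments and opposes cofilin, was called after siMYBL1 in both lines. Its implied level in U2OS was 4065, 5128 and 2758 normalized counts after the double knockdown, siMYBL1 and siMYBL2, against 3264 to 3417 after siCtrl. In HCT116 it was 6244, 7347 and 4517 normalized counts, against 5164 to 5553 after siCtrl. In both lines siMYBL1 gave the highest level, siMYBL2 the lowest, and the double knockdown lay between them. Tested against siCtrl, the log2 fold change after siMYBL1 was 0.65 (SE 0.17, Wald test adjusted p = 0.00453) in U2OS and 0.51 (SE 0.13, adjusted p = 0.0243) in HCT116 per the authors' deposited tables. The double knockdown did not pass, at 0.29 (SE 0.17, Wald test adjusted p = 0.294) in U2OS and 0.17 (SE 0.13, adjusted p = 0.556) in HCT116 per the authors' deposited tables.

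CORO1A, a coronin best known from white blood cells, had implied levels of 549, 334 and 289 normalized counts in U2OS after the double knockdown, siMYBL1 and siMYBL2, against 149 to 155 after siCtrl. In HCT116 they were 310.4, 228 and 262 normalized counts, against 179 to 187 after siCtrl. All 6 levels lay above the siCtrl levels of their line. On the log2 scale the fold change was 1.85 (SE 0.29, Wald test adjusted p = 1.93e-08) in the U2OS double knockdown and 1.17 (SE 0.31, adjusted p = 0.00788) after siMYBL1 in U2OS, and in the HCT116 double knockdown it was 0.73 (SE 0.29, adjusted p = 0.104), per the authors' deposited tables. LCP1 (L-plastin), an actin-bundling protein of blood cells, was higher in the U2OS double knockdown from a low level, with 130.1 implied normalized counts against 54.7 after siCtrl and 1.25 (SE 0.44, Wald test adjusted p = 0.0404) per the authors' deposited table. Of the blood cell markers CD68, PTPRC, CD3E, CD14, SPI1 and HBB, CD68 alone was listed in either line. CD68 had 41.0 implied normalized counts in the U2OS double knockdown, against 19.0 after siCtrl, at 1.11 (SE 0.69, Wald test adjusted p = 0.358) per the authors' deposited table. After siMYBL1 in U2OS it had 51.4 against 17.8 normalized counts, at 1.53 (SE 0.71, Wald test adjusted p = 0.221), per the authors' deposited table, and it was positive in all 6 tables without passing in any. Its part in the CORO1A and LCP1 values was not tested. Cofilin CFL1 and profilin PFN1, which sever filaments and feed monomers to them, were not called in any table, with values from -0.16 to 0.22.

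Vimentin (VIM), the intermediate filament protein of mesenchymal cells, was lower in U2OS after the double knockdown and after siMYBL2. Its implied level was 16006, 21631 and 19671 normalized counts after the double knockdown, siMYBL1 and siMYBL2, against 25813 to 27040.5 after siCtrl. Its log2 fold change was -0.71 (SE 0.17, Wald test adjusted p = 0.000510) in the double knockdown, -0.25 (SE 0.15, adjusted p = 0.393) after siMYBL1 and -0.46 (SE 0.15, adjusted p = 0.0376) after siMYBL2 per the authors' deposited tables. HCT116, an epithelial line, held 17.6 to 80.5 normalized counts of VIM in the tables that listed it, and no comparison passed there. Of the mesenchymal marker list, which does not hold VIM, 3 of 8 were higher in the U2OS double knockdown (CDH2, COL1A1 and FN1) and 0 lower. Over all genes 6.55% were higher and 6.06% lower there. The summed level of the 8 was 66867 normalized counts against 51760 after siCtrl. The highest of these markers stood at 26651 normalized counts in U2OS and their median at 2168, so single genes weigh heavily in this sum. The same sum was 69707 against 51803 after siMYBL1 and 50090.3 against 52921 after siMYBL2 in U2OS. In these comparisons 2 and 0 of 8 were called higher (all genes, 3.44% and 1.69%), with 0 at an unadjusted Wald p under 0.05 after siMYBL2. In HCT116 0 mesenchymal markers were called by the Wald test (2 of 6, 0 of 7 and 3 of 6 at an unadjusted p under 0.05 for the double knockdown, siMYBL1 and siMYBL2). Of the epithelial markers, CDH1 and KRT19 were higher and ESRP1 lower of 9 in the HCT116 double knockdown (all genes, 2.82% and 4.12%). KRT18 was lower of 7 in the U2OS double knockdown (all genes lower, 6.06%). The summed level of the epithelial markers there was 38887 against 57998 normalized counts. The epithelial sum in U2OS was 41030 against 57033 after siMYBL1 and 48706 against 59770.5 after siMYBL2, and KRT8 alone held 26986 against 39124 in the double knockdown, so KRT8 and KRT18 carry it. After the single knockdowns 0 epithelial markers were called by the Wald test (0 and 3 of 9 in HCT116 and 2 and 1 of 4 in U2OS at an unadjusted p under 0.05 for siMYBL1 and siMYBL2). These markers were measured in the same libraries as the members; their part in the members' values was not tested. VIM shares 641 of 5158 exon bases with VIM-AS1 on the opposite strand, which stood at 0.20 (SE 0.38) in the U2OS double knockdown per the authors' deposited table.

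Of SRF and its cofactors, MYOCD alone was called. MYOCD (chromosome 17, positions 12665890 to 12768949, forward strand) had implied levels of 17.1, 70.6 and 75.1 normalized counts in U2OS after the double knockdown, siMYBL1 and siMYBL2, against 209.6 to 249.9 after siCtrl. Both single knockdowns left it at a similar level, and the double knockdown at a lower one. The log2 fold change was -3.83 (SE 0.43, Wald test adjusted p = 9.23e-17) in the double knockdown, -1.57 (SE 0.38, adjusted p = 0.00220) after siMYBL1 and -1.73 (SE 0.35, adjusted p = 0.000102) after siMYBL2 per the authors' deposited tables. From the sum of both single values the double knockdown differed by -0.52 (SE 0.67), which did not pass. MYOCD thus fell in both U2OS comparisons in which ACTA2, TAGLN and CNN1, genes it can drive in smooth muscle, were called higher. It also fell after siMYBL2, where none of those 3 was called. ACTA2 came near the threshold there, at 1.33 (SE 0.46, Wald test adjusted p = 0.0642) per the authors' deposited table. A link between MYOCD and the levels of these genes was not tested.

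SRF itself had implied levels of 878, 1041 and 906 normalized counts in U2OS after the double knockdown, siMYBL1 and siMYBL2, against 1151 to 1209.9 after siCtrl. The values were -0.42 (SE 0.21, Wald test adjusted p = 0.224), -0.15 (SE 0.20, adjusted p = 0.821) and -0.42 (SE 0.19, adjusted p = 0.274) per the authors' deposited tables, with a 95% interval in the double knockdown from -0.84 to 0.00. In HCT116 SRF stood between -0.21 and 0.08. MRTFA lay between -0.26 and 0.07 in U2OS and between -0.02 and 0.36 in HCT116, and MRTFB between -0.04 and 0.00 and between 0.03 and 0.27, per the authors' deposited tables. No SRF or MRTF value passed the Wald test, and the largest SE among them was 0.25.

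Over the 6 tables, 2 of the 5 YAP targets on the list were called lower and 1 higher. Over all genes 7.52% were called lower only and 8.01% higher only. AMOTL2, an angiomotin that holds YAP in the cytoplasm and is itself a YAP target, was lower in the U2OS double knockdown, with 1581 implied normalized counts against 2301 after siCtrl and -0.54 (SE 0.18, Wald test adjusted p = 0.0310) per the authors' deposited table. CCN1 (CYR61), a secreted matrix protein, was lower after siMYBL2 in U2OS, with 4784 against 8464 normalized counts and -0.82 (SE 0.23, Wald test adjusted p = 0.00995) per the authors' deposited table. AXL, a receptor tyrosine kinase, was higher in the HCT116 double knockdown, with 1235 against 777 normalized counts and 0.67 (SE 0.23, Wald test adjusted p = 0.0472) per the authors' deposited table. Each of these 3 genes was called in a single table. CCN1 in U2OS stood at 0.27 (SE 0.18, Wald test adjusted p = 0.516) after siMYBL1, and the double knockdown gave -0.48 (SE 0.21, adjusted p = 0.132) per the authors' deposited tables, so its single knockdowns lay on different sides of siCtrl.

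CCN2 (CTGF) and ANKRD1, the other YAP targets, were not called. In U2OS CCN2 stood at -0.39 (SE 0.19), -0.20 (SE 0.20) and -0.41 (SE 0.19) and ANKRD1 at -0.18 (SE 0.23), 0.21 (SE 0.17) and -0.43 (SE 0.20) after the double knockdown, siMYBL1 and siMYBL2 per the authors' deposited tables. The HCT116 values of CCN1 and CCN2 are imprecise. CCN1 had an SE of 1.42 to 1.54 there, while genes of similar mean count had a median SE of 0.167 to 0.190, and CCN2 had an SE of 0.59 to 1.20. With such an error a change of 4-fold in either direction lies within the interval of CCN1 in HCT116, whose bounds in the double knockdown were -3.14 and 2.43. AXL after siMYBL1 in U2OS was likewise imprecise, at 0.51 (SE 0.50) per the authors' deposited table. The SE was also large for 2 members called in the U2OS double knockdown. It was 0.24 for FHL2 and 0.30 for TAGLN, against medians of 0.17 and 0.22 for genes of similar mean count. Of those genes 1.03% and 0.917% had a larger SE. Without values per library, it could not be seen which library carried this spread.

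The next comparison asked whether targeting both factors differed from targeting 1. The log2 fold changes of the double and of a single knockdown were subtracted and tested with their summed variances, a 2-sided normal test adjusted by Benjamini-Hochberg over all genes in both tables; since the siCtrl libraries cancel in the difference, this SE is too large. In U2OS the double knockdown differed from siMYBL2 in 3 of 36 members (1.05% of all genes passed), CNN1 by 1.41 (SE 0.34, adjusted p = 0.00522), LIMA1 by 1.14 (SE 0.26, adjusted p = 0.00204) and MYOCD by -2.09 (SE 0.56, adjusted p = 0.0204). From siMYBL1 it differed in 1 of 36 (1.54% of all genes), MYOCD, by -2.26 (SE 0.57, adjusted p = 0.00803). MYOCD was the member for which the U2OS double knockdown differed from both single ones.

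In HCT116 the double knockdown differed from siMYBL2 in 1 of 31 members (0.645% of all genes), TAGLN2, by -1.24 (SE 0.21, adjusted p = 5.97e-06). From siMYBL1 it differed in 0 of 31 by this normal test, with 2 at an unadjusted p under 0.05 (1.28% of all genes passed). Those were FHL2, by 0.83 (SE 0.28, adjusted p = 0.183), and ACTA2, by 1.42 (SE 0.59, adjusted p = 0.515). With 0.5 of each variance left out as the shared control, both passed: the double knockdown then differed in 2 members from siMYBL1 and in 2 from siMYBL2 in HCT116 (FHL2 joining TAGLN2), and in 7 from siMYBL2 and 2 from siMYBL1 in U2OS. Under that smaller variance 4.23% and 1.84% of all genes passed against siMYBL1 and siMYBL2 in HCT116, and 5.57% and 4.15% in U2OS. Set against the sum of both single values, the double knockdown departed from it in 0 of 36 members in U2OS and 0 of 31 in HCT116, with 0 at an unadjusted p under 0.05 in either line by the same kind of test (0.211% and 0.14% of all genes passed).

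The responses of the lines were set against each other in the same way, U2OS minus HCT116, and here no libraries are shared. The normal test called 0 of 33 members for siMYBL1, 0 of 32 for siMYBL2 and 0 of 31 for the double knockdown (0.0594%, 0.215% and 1.27% of all genes passed), with 3, 5 and 5 members at an unadjusted p under 0.05. The nearest was AMOTL2 in the double knockdown, -0.54 in U2OS and 0.33 in HCT116, a difference of -0.87 (SE 0.27, 95% interval -1.39 to -0.35, adjusted p = 0.0708). CORO1A differed by 1.12 (SE 0.41, 95% interval 0.32 to 1.92, adjusted p = 0.196) and LIMA1 by 0.57 (SE 0.24, adjusted p = 0.321) in the double knockdown. ACTA2 responded with 2.52 in U2OS and 2.32 in HCT116, and FHL2 with 1.42 and 1.21. The larger number of members called in U2OS than in HCT116 is therefore not shown to be a difference for any of the members tested here; CNN1, MYOCD, VIM and LCP1, called in the U2OS double knockdown, could not be compared there.

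**Figure D5:**
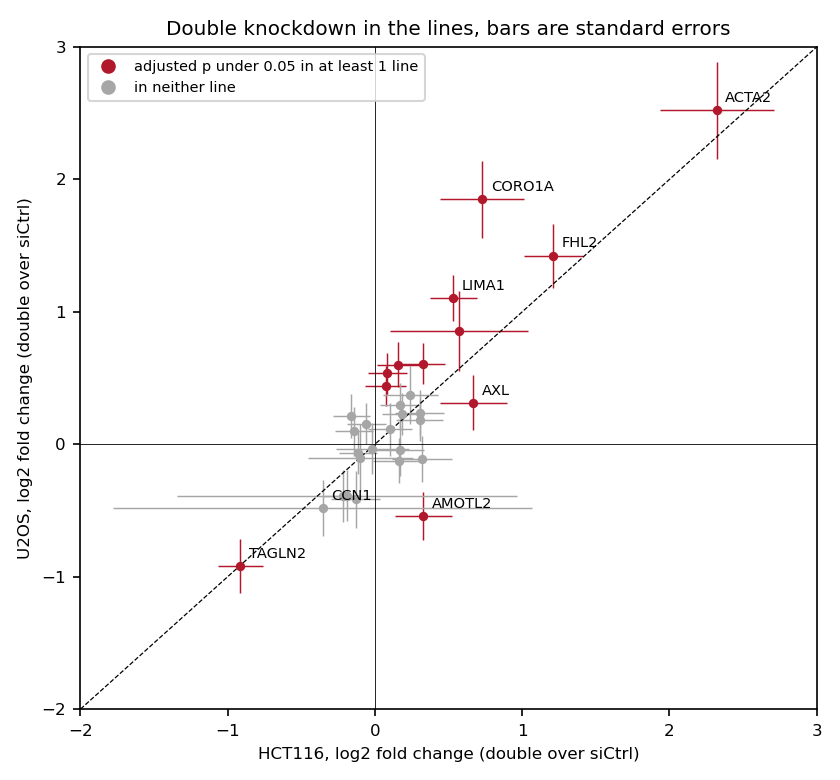
Log2 fold change of the double knockdown over siCtrl in U2OS (vertical axis) against HCT116 (horizontal axis) for the 31 members listed in both tables, with bars of 1 SE and a dashed line where both are equal; the lines share no libraries. ACTA2, FHL2 and TAGLN2 lie near the dashed line, CORO1A and LIMA1 above it and AMOTL2 below it.

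Other genes of the same pathways were counted from further lists, also chosen with earlier results of these data known. Of 25 further SRF and MRTF targets, 22 were listed in the U2OS double knockdown, where 6 were higher and 2 lower (all genes, 6.55% and 6.06%), with a median log2 fold change of 0.31 against 0.01 over all genes. CSRP1, a LIM protein of smooth muscle, stood at 1.12 (SE 0.17, Wald test adjusted p = 2.01e-09) and the fibronectin receptor subunit ITGA5 at 0.86 (SE 0.16, adjusted p = 1.69e-06), while FHL1, a relative of FHL2, was at -0.93 (SE 0.22, adjusted p = 0.000333) per the authors' deposited table. After siMYBL1 in U2OS 3 of 21 were higher and 0 lower (all genes, 3.44% and 2.27%), and after siMYBL2 1 of 21 was higher and 3 lower (all genes, 1.69% and 3.51%), among them the tropomyosin TPM3 at -1.11 (SE 0.15, Wald test adjusted p = 2.47e-10) per the authors' deposited table. In the HCT116 double knockdown 1 of 20 was higher and 2 lower (all genes, 2.82% and 4.12%), and 0 of 24 and 0 of 22 were called by the Wald test after siMYBL1 and siMYBL2, with 1 and 3 at an unadjusted p under 0.05.

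Of 17 further YAP targets, 5 of 14 listed were higher and 1 lower in the U2OS double knockdown, and 4 of 12 higher and 0 lower in the HCT116 double knockdown, where 7 had an unadjusted p under 0.05. Over all genes 6.55% were higher and 6.06% lower in U2OS and 2.82% and 4.12% in HCT116. GADD45A, a growth arrest gene that p53 also drives, stood at 1.23 (SE 0.24, Wald test adjusted p = 6.69e-06) and the ligand TGFB2 at -1.28 (SE 0.23, adjusted p = 1.01e-06) in the U2OS double knockdown per the authors' deposited table. In the HCT116 double knockdown the surface enzyme NT5E was at 1.05 (SE 0.20, Wald test adjusted p = 1.05e-05) and tissue factor F3 at 0.94 (SE 0.19, adjusted p = 5.11e-05) per the authors' deposited table. The single knockdowns gave 4 higher and 1 lower (siMYBL1) and 0 higher and 1 lower (siMYBL2) of 14 in U2OS, and 1 higher of 15 and 1 higher of 12 in HCT116 (all genes higher, 3.44% and 1.69% in U2OS and 0.115% and 0.291% in HCT116). In the Hippo core itself, 2 of 16 genes were higher and 2 lower in the U2OS double knockdown, where 6.55% and 6.06% of all genes were. AMOT stood at -1.29 (SE 0.23, Wald test adjusted p = 1.61e-06) and YAP1 at -0.50 (SE 0.17, adjusted p = 0.0323), against VGLL4 at 0.76 (SE 0.21, adjusted p = 0.00368), per the authors' deposited table. AMOT, like AMOTL2, binds YAP. It was the single Hippo gene called after siMYBL1 and after siMYBL2 in U2OS, both lower, and 0 of 16 were called by the Wald test in each HCT116 table, with 1, 1 and 0 at an unadjusted p under 0.05 for the double knockdown, siMYBL1 and siMYBL2.

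Of 26 genes of filament assembly (the Arp2/3 complex, its activators, capping proteins, thymosins and linkers), 2 of 25 listed were higher and 1 lower in the U2OS double knockdown, with a median log2 fold change of 0.10. These counts were near the shares over all genes, 6.55% and 6.06%. The severing protein GSN stood at 0.85 (SE 0.24, Wald test adjusted p = 0.00458) in that comparison per the authors' deposited table. TMSB4X, the thymosin that sequesters actin monomers, was at -0.74 (SE 0.19, Wald test adjusted p = 0.00296) after siMYBL2 in U2OS per the authors' deposited table, and it was called lower in the double knockdown as well. After siMYBL1 in U2OS 1 of 25 was higher and 0 lower (all genes, 3.44% and 2.27%). After siMYBL2 in U2OS 0 of 25 were higher and 2 lower (all genes, 1.69% and 3.51%). In HCT116 0 of 25 were called by the Wald test in each table, with 4, 1 and 1 at an unadjusted p under 0.05 for the double knockdown, siMYBL1 and siMYBL2. All genes in that order had 2.82% higher and 4.12% lower, 0.115% and 0.144%, and 0.291% and 0.837%.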

How the data were processed

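The 16 libraries formed 8 groups of 2, described as biological replicates by the series' design text. cutadapt 4.4, Salmon 1.10.1, DESeq2 1.40 and hg38 are named in the submitters' processing notes; the sources used here do not give the annotation, the filters, how transcripts were joined to genes or the use of strand. The files were 6 tables of the authors' own comparisons. As a signal, the authors give a base mean, which averages normalized counts across the 4 libraries compared. Their deposited log2 fold changes set a knockdown over siCtrl and come with a log2 standard error. A deposited score, the Wald statistic, divides one by the other. Every p-value deposited by the authors equalled the 2-sided normal p of that statistic, and the authors' adjusted p-value the Benjamini-Hochberg adjustment over the 12885 to 17323 genes of a table. The lowest base mean listed ran from 4.46 to 40.4 between tables, so low genes are listed in some tables and not in others.

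With no values per library, the depth of each library is unknown and no SD is given. The authors' test against siCtrl was used with an adjusted p threshold of 0.05. Differences between tables were tested with summed variances. The test between the lines was tried on simulated data for the double knockdown, with independent normal errors as the test assumes. The tests of the double knockdown against a single one or against the sum were not tried in this way. Group levels were computed by taking the base mean as the mean of both group means. Intervals are 95% normal intervals. Members with a call in any table, the cytoplasmic actins, SRF and its cofactors were described in full, and of further lists up to 3 higher and 3 lower genes with the smallest adjusted p could be named. The further lists held 25 SRF and MRTF targets, 17 YAP targets, 16 Hippo and 26 filament assembly genes, 10 epithelial and 10 mesenchymal markers, and blood cell markers; some further genes are not reported here. The members and lists were chosen with earlier results of these data known. Gene coordinates are on hg38, overlaps on the opposite strand come from GENCODE release 29, which need not be the authors' annotation, and promoters from RefSeq (GRCh38.p14). Alternatives were other thresholds (0.01 and 0.1), a base mean of at least 100, genes listed in all 6 tables, medians set to 0, rescaled statistics and other shares of the control variance. Python 3.11.15, pandas 2.3.3, NumPy 2.4.6, SciPy 1.17.1 and matplotlib 3.10.9 were used.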

Additional observations from a re-analysis of the deposited data

How the results depend on the processing

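Of the recomputed counts of called members, 41 stayed within 1.5 times and 11 did not. Of the recomputed values for single members 1020 kept their direction and call, 26 lost a call, 11 gained 1 and 3 changed sign near 0. Only setting medians to 0 could change a direction. Many of the values that stayed the same were not called at the start, so their number does not measure how firm the calls are. A threshold of 0.01 left 1 member called after siMYBL1 in HCT116 (2 at 0.05) and 3 in the HCT116 double knockdown (5 at 0.05), and a threshold of 0.1 gave 6 after siMYBL2 in U2OS (3 at 0.05). Dividing the Wald statistics by their scaled median absolute deviation left 3 members in the HCT116 double knockdown, 4 after siMYBL1 in U2OS and 6 in the U2OS double knockdown (15 before); ACTA2, CNN1, CORO1A, FHL2, LIMA1 and MYOCD were those 6. After siMYBL2 in U2OS, 1 member was called among genes listed by every table, because VIM and MYOCD are not listed in all of them. Leaving the shared control out of the standard error gave 2 members for the HCT116 double knockdown against siMYBL1, 2 against siMYBL2, 2 for the U2OS double knockdown against siMYBL1 and 7 against siMYBL2. With medians set to 0, AXL after siMYBL2 in HCT116 was at 0.0134, MRTFA in the HCT116 double knockdown at 0.00785 and the U2OS minus HCT116 difference of VCL after siMYBL2 at -0.0194, none of them called. No paired analysis was possible because the tables hold comparisons and no values per library, and for the same reason no replicate could be left out. With depth unknown, an absence of a low gene from a table cannot be read; the cause of each changed count other than those named was not tested.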
